A study of Mus musculus with 6 samples.

Results

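The genes of respiratory complex I were compared between Rb1L/L and Rb1+/+ mouse embryonic fibroblasts (MEFs), primary cultures that outgrow from dissociated embryos and consist mainly of connective tissue cells. Members were all genes whose transcript cluster carried a single symbol beginning with Nduf, and for a gene with several clusters the brightest over the 6 arrays was used. This gave 43 of the 19938 genes named on the array, 36 that encode structural subunits (Ndufa, Ndufb, Ndufc, Ndufs and Ndufv) and 7 assembly factors (Ndufaf). All 43 lay above the floor for dim genes, so each was tested. Some genes of the complex, among them Ndufb1, Ndufaf8 and the subunits encoded by mitochondrial DNA, were not analysed here.

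Complex I, NADH:ubiquinone oxidoreductase, is the entry point of the mitochondrial respiratory chain. Its matrix arm takes electrons from NADH and passes them along iron-sulfur clusters to ubiquinone, and its membrane arm uses that energy to pump protons. A conserved core performs the chemistry, accessory subunits surround it, and assembly factors help to build the complex but are absent from the finished enzyme. In fibroblasts it serves energy supply and the regeneration of NAD+ that growth requires.

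Both groups were cultures of E13.5 embryos, grown in serum-containing medium to passage 4 and harvested for total RNA while proliferating. The Rb1+/+ group (n = 3) carried the normal gene for the retinoblastoma protein pRb, and the Rb1L/L group (n = 3) was homozygous for the L allele, known as a mutation of the pRb surface that holds partner proteins by their LXCXE motif. The allele is present in every cell and was not induced. The labels pair the cultures by number but do not say how many embryos went into each, so p-values measure the spread between these 6 cultures only. The question stated for the arrays is how expression differs between the genotypes, and the series title sets them in a study of condensin II at promoters and of divergently paired genes.

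Array medians over all clusters ran from 6.393 to 6.449 on the log2 scale, and arrays correlated at 0.9948 to 0.996 within and at 0.9873 to 0.9927 between genotypes. The 12 fibroblast markers had a median of 11.33 to 11.48 on every array, with Vim, Col1a1 and Thy1 among them. In both genotypes the culture numbered 1 was of male type (Xist at 5.13 and 4.79, against 11.44 to 11.61 in the other cultures), so sex was balanced between the groups. In cultures that mix cell types, fewer cells of a type and less RNA per cell cannot be told apart. Of 10 macrophage and blood markers, 3 rose (Adgre1, Cd14 and C1qa) and 1 fell (Cx3cr1), and their median level per array was 6.36 to 6.67 in Rb1+/+ and 6.69 to 7.08 in Rb1L/L cultures. Of 6 neural markers, Fabp7 and Tubb3 fell and 4 did not pass the test. Their median log2 fold change was -0.30, with 5 of the 6 below 0. Stmn2, which did not pass, was lower in every Rb1L/L culture (-0.73, adjusted p = 0.113). Col3a1 and Lum fell among the fibroblast markers, as did Dcn with the culture number as a block (adjusted p = 0.0346, against 0.113 without). Kdr rose among 5 endothelial markers, none of 7 muscle and 5 epithelial markers passed, and Pecam1, Epcam and Myh3 lay below the floor. The part of these other cells in the complex I values was not tested.

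Of the 43 members, 6 rose in Rb1L/L cultures, namely Ndufa4, Ndufa1, Ndufs6, Ndufb6, Ndufa6 and Ndufaf3, and 3 fell, namely Ndufv3, Ndufs7 and Ndufb11 (limma, adjusted p under 0.05 over all 15462 tested genes). The rises ran from 0.25 to 0.70 and the falls from -0.23 to -0.25 on the log2 scale, so no member changed 2-fold. Over all tested genes 1098 rose (7.1%) and 785 fell (5.08%), 12.2% in either direction. That split depends on scaling, with 883 risen and 1067 fallen after median centring of the arrays. Among the members 13.95% rose and 6.977% fell. Groups did not overlap for 17 members that were higher in every Rb1L/L culture (39.53%, against 16.2% of all tested genes) and for 5 that were lower in every one (11.63%, against 18.3%). The median log2 fold change was 0.10 over the members, 31 of which were above 0, and -0.02 over all tested genes. With the culture number as a block, 8 members rose and 2 fell: Ndufaf1 and Ndufv1 passed the test in that fit and Ndufb11 did not.

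**Figure D1:**
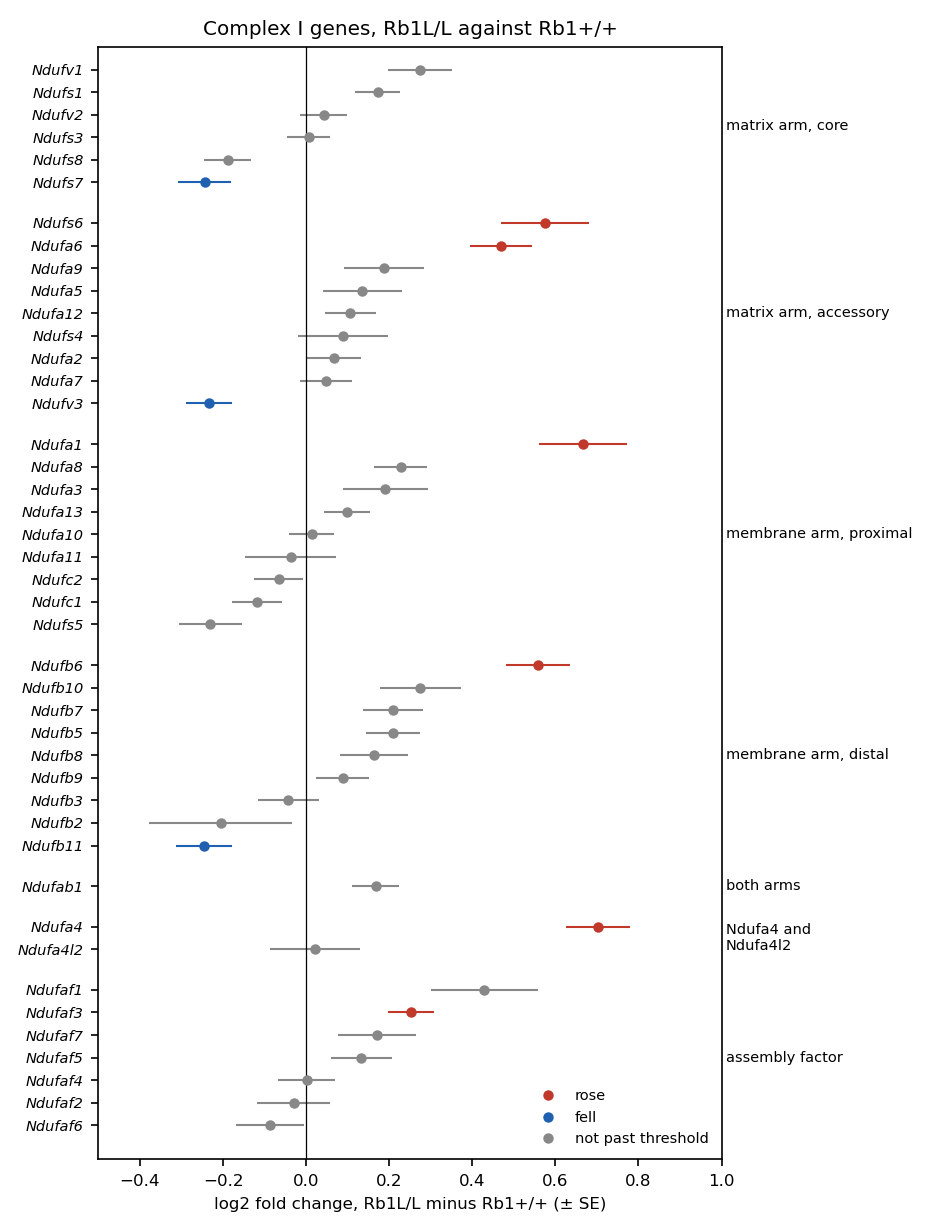
Log2 fold change of each of the 43 complex I genes (points, Rb1L/L minus Rb1+/+; bars, moderated standard error from limma), grouped by position in the complex, with genes past an adjusted p of 0.05 in red (rose) or blue (fell). The rises are spread over both arms and the assembly factors, and 34 genes in grey did not pass the threshold.

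Ndufa4 had the largest fold change of the 43. Named as a complex I gene, it encodes a protein that was later assigned to cytochrome c oxidase, complex IV. It measured 9.22, 9.39 and 9.25 in the Rb1+/+ cultures numbered 1 to 3 and 10.12, 9.95 and 9.90 in the Rb1L/L cultures. Every Rb1L/L value lay above every Rb1+/+ value, a 1.63-fold rise (log2 fold change 0.70 ± 0.08 SE, adjusted p = 0.00303). Its paralogue Ndufa4l2, known as a gene induced by low oxygen, measured 6.02, 5.85 and 5.66 in Rb1+/+ and 5.90, 5.99 and 5.70 in Rb1L/L cultures. The groups overlapped fully and the fold change was 0.02 ± 0.11 (adjusted p = 0.92). Without these 2 genes, 4 of 34 structural members rose (11.76%, against 7.1% of all tested genes) and 3 fell (8.824%, against 5.08%).

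The 120 bases before the RefSeq start of Ndufa4 are shown with those of 2 further members that rose and 1 that fell, because these are the stretches before changed members that no annotated gene covers. They are given 5′ to 3′ in the direction of the gene, build GRCm38.p6, on the minus strand for the first 3 and on the plus strand for Ndufv3, at chr6:11907451-11907570, chr4:40279422-40279541, chr15:82354292-82354411 and chr17:31519995-31520114. Capitals mark the letters GCATGCGC, the core to which the transcription factor NRF1 binds.
Ndufa4: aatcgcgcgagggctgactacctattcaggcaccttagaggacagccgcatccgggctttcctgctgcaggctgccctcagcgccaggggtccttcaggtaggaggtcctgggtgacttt
Ndufb6: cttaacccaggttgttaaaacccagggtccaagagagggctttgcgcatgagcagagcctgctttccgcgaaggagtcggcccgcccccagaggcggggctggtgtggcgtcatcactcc
Ndufa6: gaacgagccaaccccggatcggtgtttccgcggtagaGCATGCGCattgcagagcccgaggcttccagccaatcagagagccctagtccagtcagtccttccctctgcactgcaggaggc
Ndufv3: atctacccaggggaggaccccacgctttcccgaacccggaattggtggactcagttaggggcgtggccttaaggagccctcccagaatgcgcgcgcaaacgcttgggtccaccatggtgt
All 4 are rich in G and C, with 61.7% for Ndufa4, Ndufa6 and Ndufv3 and 62.5% for Ndufb6, against a median of 62.5% over the same stretch of all tested protein-coding genes.

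Of the 6 measured core subunits of the matrix arm none rose, Ndufs7 fell, and 4 had fold changes above 0. Over all tested genes 7.1% rose and 5.08% fell, so 1 fall among 6 genes does not set the core apart. Ndufv1 binds NADH and the flavin that accepts its electrons. It measured 10.08, 9.87 and 9.89 in Rb1+/+ and 10.26, 10.13 and 10.27 in Rb1L/L cultures. The groups did not overlap, yet the adjusted p was 0.0531 (0.27 ± 0.08); it was 0.0359 with the culture number as a block. Ndufv2 and Ndufs1 carry iron-sulfur clusters that take the electrons on. Ndufs1 stood at 8.99, 8.99 and 9.06 in Rb1+/+ and 9.21, 9.16 and 9.18 in Rb1L/L cultures, again without overlap (0.17 ± 0.05, adjusted p = 0.075). Ndufv2 stood at 10.97, 11.09 and 11.04 against 11.10, 11.09 and 11.04, and the difference of 0.04 ± 0.06 lay within the spread (adjusted p = 0.674).

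Both core subunits below 0 belong to the end of the arm near ubiquinone. Ndufs7 holds the last iron-sulfur cluster before ubiquinone, and it fell. Its values were 12.48, 12.50 and 12.63 in Rb1+/+ and 12.26, 12.26 and 12.36 in Rb1L/L cultures. The groups did not overlap and each Rb1L/L culture lay below its numbered partner, with differences of -0.23, -0.24 and -0.26 (fold change -0.24 ± 0.06, adjusted p = 0.0441). Ndufs8, another iron-sulfur subunit of that region, stood at 11.21, 11.19 and 11.25 in Rb1+/+ and 11.02, 10.97 and 11.09 in Rb1L/L cultures. No value overlapped here either, and the fold change of -0.19 ± 0.06 missed the threshold (adjusted p = 0.0685, or 0.0427 after median centring of the arrays). Ndufs3 was the steadiest of the core, at 10.84, 10.85 and 10.83 against 10.83, 10.86 and 10.85 (0.01 ± 0.05, adjusted p = 0.954). The call of Ndufs7 was lost whichever array was left out, with adjusted p from 0.058 to 0.14. It was also lost with quantile normalization (0.0727) and with no filter on dim genes (0.0554).

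Of the 9 accessory members of the matrix arm 2 rose (22.22%) and 1 fell (11.11%), against 7.1% and 5.08% of all tested genes. Ndufs6, a zinc-binding subunit of the part that oxidises NADH, measured 8.39, 8.63 and 8.70 in Rb1+/+ and 9.30, 9.18 and 8.97 in Rb1L/L cultures. The groups were separate, but the difference between same-numbered cultures ran from 0.27 for number 3 to 0.90 for number 1 (fold change 0.58 ± 0.11, adjusted p = 0.0153). Without Rb1L/L culture 1 its adjusted p was 0.0548 and without Rb1L/L culture 2 it was 0.0543. Ndufa6, of the LYR-motif family, anchors an acyl carrier protein to the matrix arm. It measured 8.64, 8.71 and 8.57 in Rb1+/+ and 9.24, 9.09 and 9.01 in Rb1L/L cultures, with no overlap (0.47 ± 0.07, adjusted p = 0.00916).

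Ndufv3, an accessory subunit at the NADH-oxidising tip beside Ndufv1 and Ndufv2, fell. It measured 9.33, 9.41 and 9.35 in Rb1+/+ and 9.10, 9.17 and 9.11 in Rb1L/L cultures. The spread within a genotype was small, and the differences between same-numbered cultures were -0.22, -0.23 and -0.24 (fold change -0.23 ± 0.06, adjusted p = 0.0332). The call was lost in each of the 6 fits without 1 array, with adjusted p from 0.0646 to 0.114. The other 6 accessory members of this arm did not pass, with fold changes of 0.19 for Ndufa9, 0.14 for Ndufa5, 0.11 for Ndufa12, 0.09 for Ndufs4, 0.07 for Ndufa2 and 0.05 for Ndufa7. Ndufab1, the acyl carrier protein found in both arms, had a fold change of 0.17 ± 0.06 (adjusted p = 0.092), with 9.93, 9.94 and 10.01 in Rb1+/+ and 10.14, 10.15 and 10.08 in Rb1L/L cultures.

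In the proximal part of the membrane arm, next to the matrix arm, 1 of 9 members rose (11.11%) and none fell. Over all tested genes 7.1% rose and 5.08% fell, so 1 of 9 is near the share of all genes. Ndufa1 is a small X-linked membrane subunit without which the complex is not assembled. It measured 7.23, 7.28 and 6.88 in Rb1+/+ and 7.74, 7.78 and 7.87 in Rb1L/L cultures. All 3 Rb1L/L values were higher, by 0.51 and 0.50 in the cultures numbered 1 and 2 and by 0.99 in those numbered 3 (fold change 0.67 ± 0.11, adjusted p = 0.009). The male-type pair, number 1, thus showed a difference close to that of the female-type pair numbered 2. Ndufa8 had a fold change of 0.23 (adjusted p = 0.0527), with 10.46, 10.50 and 10.33 against 10.63, 10.64 and 10.70 and no overlap. Below 0 and short of the threshold were Ndufs5 (-0.23, adjusted p = 0.085), Ndufc1 (-0.12), Ndufc2 (-0.07) and Ndufa11 (-0.04). Ndufa3 (0.19), Ndufa13 (0.10) and Ndufa10 (0.01) were above 0.

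Of the 9 members in the distal membrane arm, 1 rose and 1 fell (11.11% each, against 7.1% and 5.08% of all tested genes). In Rb1L/L cultures 5 were higher without overlap (55.56%, against 16.2% of all tested genes) and 1 was lower (11.11%, against 18.3%). Ndufb6 measured 10.96, 11.14 and 10.96 in Rb1+/+ and 11.64, 11.63 and 11.47 in Rb1L/L cultures, a rise of 0.56 ± 0.08 (adjusted p = 0.00557). Ndufb11, X-linked like Ndufa1, went the other way. It measured 11.45, 11.66 and 11.53 in Rb1+/+ and 11.32, 11.27 and 11.31 in Rb1L/L cultures (-0.25 ± 0.07, adjusted p = 0.0499). The groups did not overlap, but the call sat on the threshold: the adjusted p was 0.059 with the culture number as a block and 0.0546 to 0.144 without 1 array. By number, its brightest cluster lies among clusters of chromosome 5, so its brightest signal is uncertain as a measure of the X-linked gene. The dimmer cluster, among those of the X chromosome, gave a fold change of -0.22. The remaining 7 did not pass, at 0.27 for Ndufb10, 0.21 each for Ndufb7 and Ndufb5, 0.16 for Ndufb8, 0.09 for Ndufb9, -0.04 for Ndufb3 and -0.21 ± 0.17 for Ndufb2. Ndufb2 was the most variable of these, at 7.47, 7.87 and 8.25 in Rb1+/+ and 7.74, 7.71 and 7.52 in Rb1L/L cultures.

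**Figure D2:**
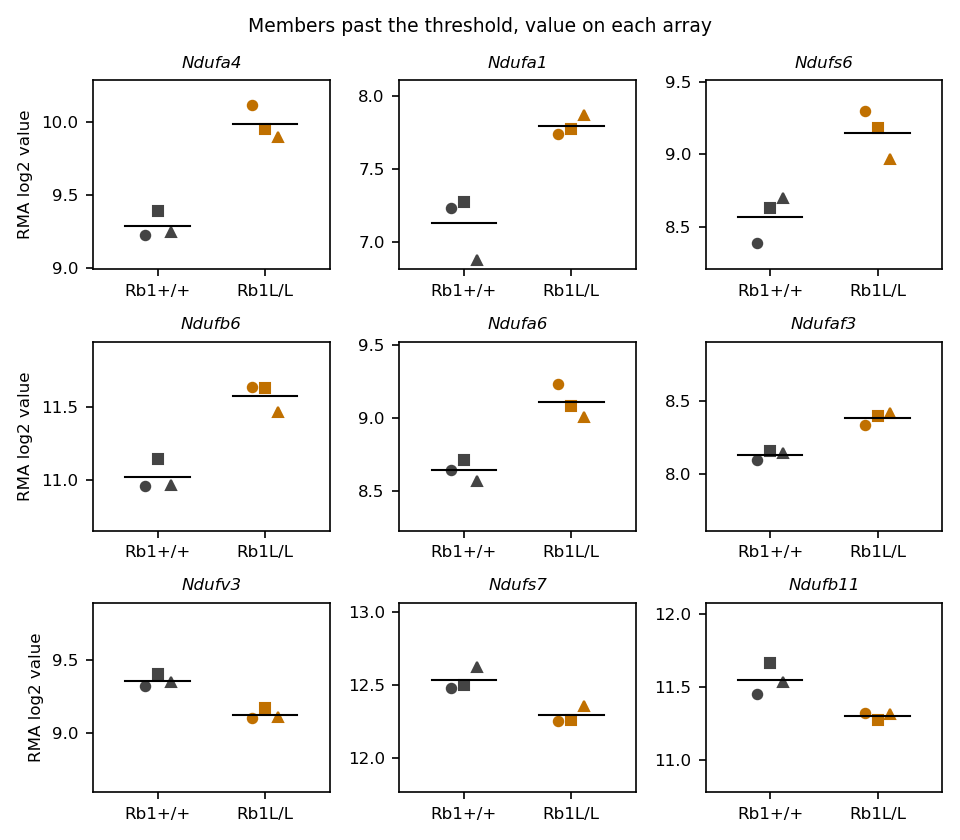
RMA log2 value on each array for the 9 members past the threshold, with Rb1+/+ in grey and Rb1L/L in orange; circle, square and triangle mark the cultures numbered 1, 2 and 3, lines mark group means, and every panel spans the same log2 range. In all 9 panels the groups are separate, with the widest gap for Ndufa4 and narrower gaps for Ndufaf3, Ndufv3, Ndufs7 and Ndufb11.

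For the 5 structural members that rose, leaving out both cultures of 1 number mattered most for number 1. Their fold changes without that pair were 0.75 for Ndufa1, 0.61 for Ndufa4, 0.50 for Ndufb6, and 0.41 each for Ndufa6 and Ndufs6, and none passed (adjusted p = 0.0547 to 0.118). With 2 cultures a group, only 87 of all genes rose and 5 fell in that fit. Ndufa4, Ndufa1, Ndufb6 and Ndufa6 passed in all 6 fits that left out 1 array and in both fits without the cultures numbered 2 or 3.

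Among the 7 assembly factors, Ndufaf3 rose (14.29%, against 7.1% of all tested genes) and none fell (against 5.08%). Ndufaf3 acts with Ndufaf4 early in assembly, on the part that binds ubiquinone. It measured 8.09, 8.16 and 8.14 in Rb1+/+ and 8.34, 8.40 and 8.42 in Rb1L/L cultures, without overlap (0.25 ± 0.06, adjusted p = 0.0255). When 1 array was left out it passed only without Rb1+/+ culture 2 (adjusted p = 0.0475), and the other 5 fits gave 0.0601 to 0.0866. Its partner Ndufaf4 stood at 8.05, 8.16 and 8.28 against 8.17, 8.17 and 8.15, a difference of 0.00 (adjusted p = 0.992).

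Ndufaf1, a member of the assembly complex that builds the membrane arm, had the largest fold change of the class. It measured 8.64, 8.67 and 8.39 in Rb1+/+ and 9.16, 9.12 and 8.71 in Rb1L/L cultures. In both genotypes culture 3 was the lowest, and the fold change of 0.43 ± 0.13 had an adjusted p of 0.0661 without and 0.00999 with the culture number as a block. Without Rb1L/L culture 3 the adjusted p was 0.0213. Ndufaf5, which hydroxylates Ndufs7, stood at 6.83, 6.82 and 6.69 against 6.82, 6.89 and 7.03 (0.13 ± 0.07, adjusted p = 0.279). Ndufaf7, a methyltransferase needed for assembly, stood at 6.798, 6.809 and 7.086 against 7.002, 7.013 and 7.190 (0.17 ± 0.09, adjusted p = 0.268). In both, values of the genotypes overlapped.

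Ndufaf2, which acts late in assembly, stood at 7.69, 7.83 and 7.98 in Rb1+/+ and 7.71, 7.91 and 7.80 in Rb1L/L cultures (-0.03, adjusted p = 0.862). Ndufaf6 stood at 6.31, 6.39 and 6.25 against 6.18, 6.39 and 6.12 (-0.09, adjusted p = 0.533). Neither difference exceeded the spread between cultures.

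Structural subunits and assembly factors were set side by side without a test. Of the 36 structural members 5 rose (13.89%) and 3 fell (8.333%), and of the 7 assembly factors 1 rose (14.29%) and none fell. Over all tested genes 7.1% rose and 5.08% fell, and 7 assembly factors are too few to set their counts apart from these shares. The median log2 fold change was 0.09 for structural members, with a range of -0.25 to 0.70, and 0.13 for assembly factors, with a range of -0.09 to 0.43. The medians differed by -0.04, and this difference was above 0 without Rb1+/+ culture 3 (0.0051), without Rb1L/L culture 3 (0.0158) and without both (0.0141). The groups were separate and higher in Rb1L/L for 15 structural members (41.67%) and 2 assembly factors (28.57%), against 16.2% of all tested genes. They were separate and lower for 5 structural members (13.89%) and 0 assembly factors, against 18.3% of all tested genes. Taking each gene's distance from its Rb1+/+ mean, the structural median was -0.035, 0.036 and -0.011 in Rb1+/+ and 0.098, 0.063 and 0.081 in Rb1L/L cultures. For assembly factors it was -0.039, 0.027 and 0.012, against 0.038, 0.110 and 0.140. In both classes all 3 Rb1L/L medians lay above all 3 Rb1+/+ medians, while over all tested genes the Rb1L/L medians were -0.017 to -0.020.

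**Figure D3:**
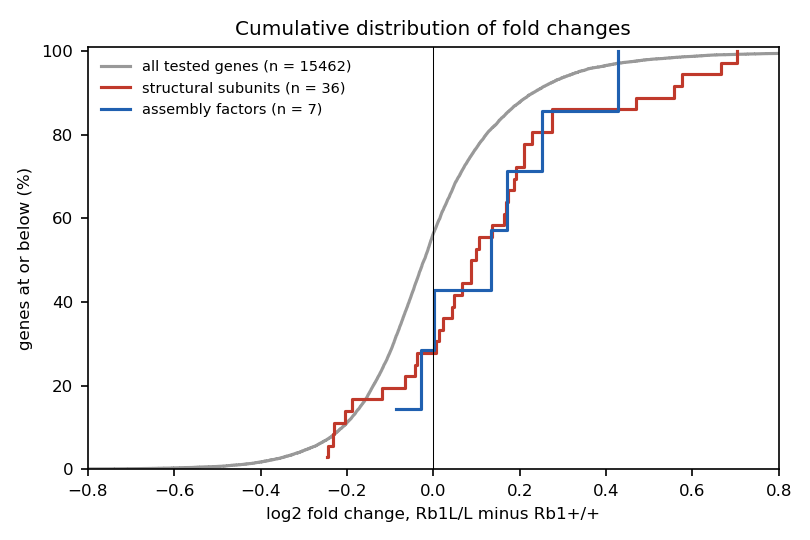
Cumulative share of genes (vertical axis, percent) at or below each log2 fold change (horizontal axis, Rb1L/L minus Rb1+/+) for the 36 structural subunits in red, the 7 assembly factors in blue and all 15462 tested genes in grey. Both complex I curves lie right of the grey curve at their medians (0.09 and 0.13 against -0.02), and the structural curve extends further on both sides than that of the assembly factors.

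By subunit name, Ndufa genes had a median of 0.14 with 3 of 15 risen (20%) and none fallen. Ndufb genes had a median of 0.16, with 1 of 9 in each direction (11.11%). Over all tested genes 7.1% rose and 5.08% fell. The 7 Ndufs genes had a median of 0.01, with Ndufs6 risen and Ndufs7 fallen. Without overlap, 3 of them were lower in Rb1L/L (42.86%, against 18.3% of all tested genes) and 2 were higher (28.57%, against 16.2%). The 3 Ndufv genes had a median of 0.04 and the 2 Ndufc genes of -0.09. Within the matrix arm the median was 0.02 for the core and 0.11 for the accessory members, and each of these groups held members on both sides of 0.

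Complex I is also built with factors that carry other names, and 14 of these were tested. Of them 4 rose (28.57%, against 7.1% of all tested genes) and none fell (against 5.08%), with a median of 0.08. Foxred1, an oxidoreductase-like assembly factor, measured 7.93, 7.92 and 7.85 in Rb1+/+ and 8.19, 8.30 and 8.26 in Rb1L/L cultures (0.35 ± 0.06, adjusted p = 0.0111). Chchd4, which oxidises and traps small proteins in the intermembrane space, rose by 0.39 ± 0.07 (adjusted p = 0.0168). Tmem186 rose by 0.27 (adjusted p = 0.0192) and Dmac1, needed for the distal membrane arm, by 0.26 (adjusted p = 0.0366). Acad9, a partner of Ndufaf1, stood at 0.24 (adjusted p = 0.0625).

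In the other complexes, II to V, 12 of 38 tested genes rose (31.58%, against 7.1% of all tested genes) and 3 fell (7.895%, against 5.08%). With the culture number as a block 11 of them rose and 4 fell. Their median, 0.08, was close to that of the complex I structural members. The difference between these shares and those of complex I was not tested. In complex IV, Cox4i1 (0.62, adjusted p = 0.00477), Cox5a (0.34), Cox6a1 (0.36) and Cox7a2 (0.33) rose and Cox7b fell (-0.23). The adjusted p of Cox7a2 was 0.0402 without and 0.0532 with the culture number as a block. In complex V, the ATP synthase, Atp5c1 (0.49), Atp5e (0.46), Atp5a1 (0.23), Atp5g3 (0.24) and Atp5o (0.23) rose and Atp5g1 fell (-0.29). In complex III, Uqcr10 (0.35) and Uqcrfs1 (0.31) rose and Cyc1 fell (-0.30), and in complex II Sdhd rose (0.37). Sdhc stood at -0.42, with an adjusted p of 0.0718 without and 0.0076 with the culture number as a block. Each complex that had more than 4 tested genes thus held both rises and falls.

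Of 77 genes for proteins of the mitochondrial ribosome, which translates the subunits encoded by mitochondrial DNA, 21 rose (27.27%) and 1 fell (1.299%). With the block, 25 of these genes rose and 1 fell. Their median was 0.16, and over all tested genes 7.1% rose and 5.08% fell. Mrpl11 rose by 0.80 (adjusted p = 0.000999), Mrpl18 by 0.60, Mrpl15 by 0.48 and Mrps33 by 0.46, and Mrpl50 fell (-0.33). General markers of mitochondrial content, such as import receptors, porins and citrate synthase, had a median of 0.02. Of these 15 genes Timm44 rose (0.34, adjusted p = 0.0082), and none fell. Its single rise makes 6.667% of the list, near the 7.1% of all tested genes. Among 12 regulators of mitochondrial biogenesis, Nrf1 rose by 0.24 (adjusted p = 0.0326) and Gabpb1 by 0.21 (adjusted p = 0.0451, or 0.0614 with the culture number as a block). Tfb2m, a factor for transcription of mitochondrial DNA, fell (-0.40, adjusted p = 0.0178), and Ppargc1a lay below the floor. Of the 12 regulators 16.67% thus rose and 8.333% fell, beside 7.1% and 5.08% of all tested genes.

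**Figure D4:**
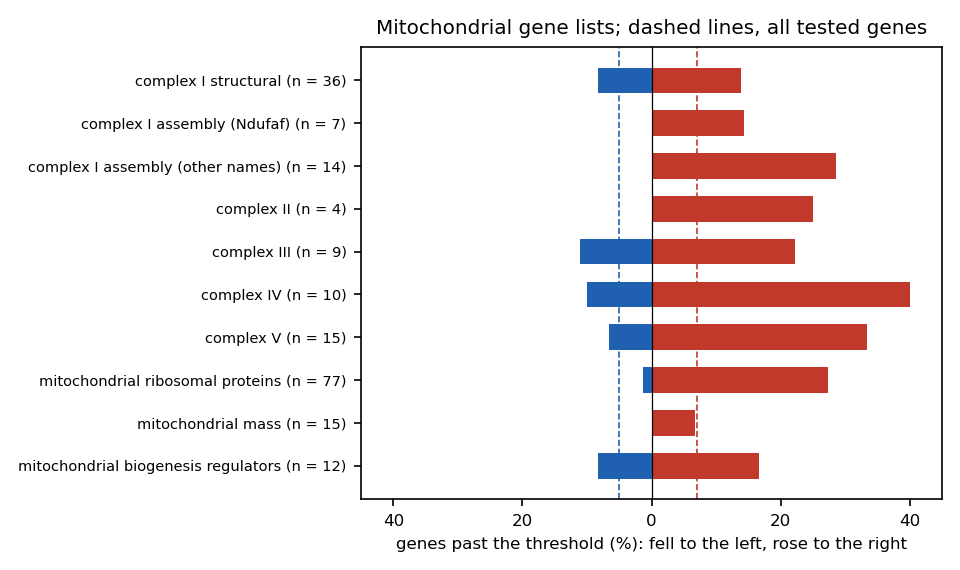
Percent of the tested genes of each list that rose (red, to the right) or fell (blue, to the left) in Rb1L/L cultures at an adjusted p under 0.05, with dashed lines at the shares over all tested genes (7.1% and 5.08%). Rises made up 13.89% of complex I structural genes, 40% of complex IV genes and 6.667% of mitochondrial mass genes.

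The promoter windows of 38 of the 43 members, from 250 bases before to 50 after the RefSeq start, were searched on both strands for short motifs of factors known for respiratory chain genes or the cell cycle. The NRF1 core GCATGCGC stood in 5 members (13.2%), against 5.2% of the 11791 tested protein-coding genes with a window. The YY1 core AAGATGGC stood in 7 members (18.4%, against 4.5%), and the core CCGGAAG of ETS factors such as GABP in 5 (13.2%, against 16.9%). E2F letters, TTTCCCGC or TTTGGCGC, stood in none of the 38 windows and in 3.1% of all. At so low a share few matches are expected in 38 windows, so their absence does not set the members apart. The ETS core ends in the letters AAG that open the YY1 core, so a stretch can match both. These are matches of letters, not binding sites. The YY1 core was found both in Ndufs6, which rose, and in Ndufs7, which fell.

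The stretches around the match in the changed members are shown with the matched letters in capitals, 5′ to 3′ along the gene. Only the YY1 core stood both in a member that rose and in a member that fell. Among changed members, the NRF1 core stood only in Ndufa6 and the ETS core only in Ndufb6, which both rose. Each core stood in 1 of 6 members that rose (16.7%) and in 4 of 29 not past the threshold (13.8%). Counts this small do not tie a core to a direction. Counted from 1 at the RefSeq start, with negative positions before it, the match began at position 34 in Ndufs6, 25 in Ndufs7, -83 in Ndufa6 and -232 in Ndufb6, where the letters lie on the opposite strand.
Ndufs6, YY1 core, chr13:73328433-73328462, minus strand: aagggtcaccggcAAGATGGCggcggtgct
Ndufs7, YY1 core, chr10:80249462-80249491, plus strand: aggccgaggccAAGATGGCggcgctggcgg
Ndufa6, NRF1 core, chr15:82354356-82354385, minus strand: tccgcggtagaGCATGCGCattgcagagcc
Ndufb6, ETS core, chr4:40279635-40279664, minus strand: tcgtccttgttCTTCCGGtcccctccccta

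Divergent pairs are genes transcribed away from each other from a shared promoter region. A protein-coding gene on the opposite strand lay head to head within 1000 bases, by outermost RefSeq ends and with overlap allowed, for 16 of the 38 members with a known strand (42.1%), against 13.3% of the 11791 tested genes. Of the 9 members past the threshold 6 had such a partner, and in none of these 6 pairs did the partner pass. Over all tested genes 12.2% passed, so 6 pairs are too few to set partners apart from other genes. Ndufa4 lies 275 bases from Phf14, which measured 7.57, 7.78 and 7.61 in Rb1+/+ and 7.74, 7.78 and 7.81 in Rb1L/L cultures (0.12 ± 0.07, adjusted p = 0.288). Ndufa1 overlaps the start of Rnf113a1, which measured 6.32, 6.19 and 6.25 against 6.25, 6.18 and 6.32 (0.00 ± 0.06, adjusted p = 0.984). Ndufs6 lies 21 bases from Mrpl36 (0.07 ± 0.06, adjusted p = 0.491) and Ndufaf3 48 bases from Dalrd3 (0.17 ± 0.06, adjusted p = 0.101).

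Of the 3 members that fell, Ndufv3 and Ndufb11 had a partner, and both partners had fold changes above 0. Ndufv3 lies 130 bases from Wdr4, which measured 7.29, 7.42 and 7.13 in Rb1+/+ and 7.53, 7.46 and 7.52 in Rb1L/L cultures (0.22 ± 0.08, adjusted p = 0.101). Ndufb11 overlaps Rbm10 (0.10 ± 0.06, adjusted p = 0.3). In the pairs whose member did not pass, Rps28 beside Ndufa7 rose (0.23 ± 0.06, adjusted p = 0.0363, or 0.053 with the culture number as a block) and Esf1 beside Ndufaf5 fell (-0.46 ± 0.12, adjusted p = 0.0427). Mrpl47, 302 bases from Ndufb5, stood at 0.32 ± 0.10 (adjusted p = 0.0676, or 0.0189 with the block). Of the 15 tested partners 1 rose and 1 fell, beside 7.1% and 5.08% of all tested genes. In 7 of the 15 pairs both genes had the same sign, and in none were both past the threshold. With so few pairs these counts do not set divergent pairs apart from other genes. The difference within a pair was not tested.

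**Figure D5:**
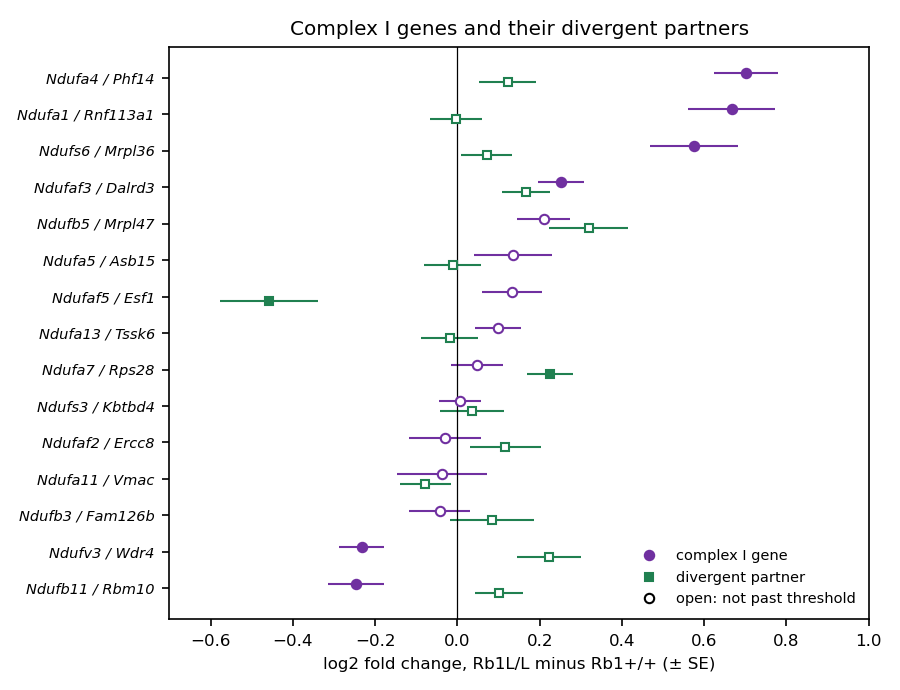
Log2 fold change (Rb1L/L minus Rb1+/+, bars are moderated standard errors) of 15 complex I genes (purple circles) and of the gene that lies head to head with each (green squares), with filled symbols past an adjusted p of 0.05. The partners of Ndufa4, Ndufa1 and Ndufs6 lie near 0 (0.12, 0.00 and 0.07), and those of Ndufv3 and Ndufb11 lie above 0 while the complex I gene lies below.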

How the data were processed

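Expression was measured on 6 arrays, 3 per genotype. The authors deposited RMA values on the log2 scale and also name Partek, per the submitters' processing notes, with no version or setting given in the sources used here. Because RMA gives all arrays a common distribution, a shift of most genes in the same direction cannot be seen, and dim genes show compressed fold changes. An array has no read depth, and the number of arrays limits the precision. The values ran from 2.28 to 14.16.

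Of 35556 transcript clusters, 21789 carried 1 symbol, 1621 several and 12146 were not named. Clusters with 1 symbol stood for 19938 genes (symbols updated through RefSeq, assembly GRCm38.p6), and the brightest cluster of a gene was used, also for the 999 genes with several. The floor for dim genes was log2 5.081, below which lay 90% of 1194 olfactory and vomeronasal receptor genes, and 15462 genes with a mean above it were tested. limma 3.58.1 in R 4.3.3 (lmFit, eBayes) compared Rb1L/L with Rb1+/+ with no block term. P-values were adjusted by Benjamini-Hochberg over the 15462 genes and called under 0.05. Fold changes are log2, Rb1L/L minus Rb1+/+, with moderated standard errors. The procedure was tested on simulated data.

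Culture numbers pair the samples: the labels speak of MEF pairs, and the correlations of same-numbered arrays, after subtracting each genotype's mean, were 0.30, 0.24 and 0.30. Values with the number as a block are given where it changed the call of a named gene or the count of a list. Other alternatives were array scaling, the filter, the mean of a gene's clusters, trended variance, array weights, and leaving out arrays or pairs.

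Per-array values are given for members past the threshold, core subunits, assembly factors, Ndufa4, Ndufa4l2 and X-linked members, and other members whose values bear on a comparison; of each other list, members of smallest p are named. The members and lists were chosen with earlier results of these data known. Promoter windows came from RefSeq (GRCm38.p6) and matched 38 of 43 members by symbol. The build behind the array's annotation is unknown here, and windows were joined to it by symbol only. Where a cluster lies was read from the chromosome of the clusters with the nearest numbers.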

Additional observations from a re-analysis of the deposited data

How the results depend on the processing

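No member past the threshold changed sign in any setting. The 5 rises among structural subunits were 6 with the replicate block, 6 with quantile normalization, 7 with a stricter filter, 7 with trended variance and 6 with array weights, and 0 to 6 with arrays left out, the 0 coming without both cultures numbered 1. The 3 falls were 1 with no filter and 0 with any array or pair left out. They were 2 with the replicate block, with quantile normalization and with the mean of a gene's clusters. With median centring and with trended variance they were 4. The single rise among assembly factors became 2 with the replicate block and 2 with array weights, and 0 to 1 with arrays left out. The median of the assembly factors, 0.1329, was 0.1088 after median centring, 0.1038 with array weights and 0.0668 to 0.1802 with arrays left out. The structural minus assembly median, -0.0395, was -0.0015 with array weights and -0.0991 to 0.0158 with arrays left out, turning above 0 without Rb1+/+ culture 3 (0.0051), without Rb1L/L culture 3 (0.0158) and without both (0.0141); the cause was not tested. The medians of both classes stayed above 0 in every setting run, and the replicate block changed no median. Over single members, up to 17 settings each left 665 values on the same side, 49 short of the threshold and 16 newly past it; 10 members changed sign in some setting, and none of them passed the threshold in any. Over all tested genes 1098 rose and 785 fell, a balance that turned to 883 and 1067 after median centring; the counts were 1013 and 903 after quantile normalization and 87 and 5 without the pair numbered 1. Median centring moved the median of all genes by -0.024.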

Other observations

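Clusters annotated to several genes were left out by the rule and are given as values. Of 2 clusters shared by Ndufb4 and Ndufb4b, the dimmer measured 11.96, 11.99 and 11.89 in Rb1+/+ and 11.75, 11.64 and 11.77 in Rb1L/L cultures, a log2 fold change of -0.23. The brighter measured 12.20, 12.21 and 12.12 against 11.96, 11.88 and 12.01, also -0.23. Both were lower in every Rb1L/L culture than in every Rb1+/+ culture. A cluster shared by Ndufs5 and its copy Ndufs5-ps had a log2 fold change of -0.27, beside -0.23 for the Ndufs5 cluster used. Second clusters of members gave -0.15 for Ndufc1, -0.07 for Ndufa11, -0.02 for Ndufs3 and 0.15 for Ndufab1, against -0.12, -0.04, 0.01 and 0.17 for the clusters used. By number, the brightest cluster of Ndufa11 lies among clusters of chromosome 16, and the second among those of chromosome 17, which holds the gene.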
